A study of Mus musculus and Homo sapiens with 22 samples.

Results

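The 37 mouse genes described here encode structural proteins of the kinetochore and proteins of the spindle checkpoint. They were listed by symbol, and all 37 were found among the 38924 gene IDs of each 4T1 count table. By layer, 13 encode inner kinetochore proteins, 17 encode outer kinetochore proteins, and 7 encode checkpoint proteins or shugoshins. The list is a choice of genes by function, made with earlier results of these data known.

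The kinetochore is the protein assembly that joins each centromere to the spindle microtubules. Its inner layer, the nucleosome with the centromeric histone CENP-A and the constitutive centromere-associated network, stays on the centromere, whereas the outer layer (the MIS12, NDC80, SKA and RZZ complexes and the corona proteins CENP-E and CENP-F) is built up for mitosis and holds the microtubules. Kinetochores that hold no microtubule recruit MPS1 (Ttk), BUB1, BUBR1 (Bub1b), BUB3 and MAD2 (Mad2l1), which restrain the anaphase-promoting complex, and shugoshins protect centromeric cohesion. Transcripts of many of these genes are most abundant in the G2 and M phases of dividing cells. Aurora B corrects faulty attachments at the outer layer, and ENMD-2076 and TAK901 are both known as inhibitors of Aurora kinases, ENMD-2076 with several other kinase targets.

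RNA was sequenced from cells labelled 4T1, a mouse mammary carcinoma line, plated for 24 h and then treated for 24 h. There were 6 groups of 2 libraries. ENMD-2076 at 1.25 µM and at 2.5 µM was set against DMSO 1 and 2, and TAK901 at 1 µM and at 2 µM against DMSO 3 and 4. DMSO is the solvent of the compounds. The labels give no genetic change in any group, and they do not say whether the libraries of a group came from separate cultures, so the p-values speak only to variation among these particular libraries, and that variation could be technical. The growth protocol names 1 or 2 µM ENMD-2076 for these cells, whereas the treatment labels name 1.25 and 2.5 µM. The column headers of all 4 ENMD-2076 count tables carry a dose of 10 µM. The labels were followed, and which dose was given cannot be told from these sources. In bulk RNA, fewer cells that express a gene and less of its RNA per cell cannot be told apart.

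The libraries labelled 4T1 came in 2 sets that stood apart before any treatment. Endoderm markers summed to 353 to 367 CPM (a gene's reads scaled to library size, with TMM factors) in DMSO 3 and 4, against 0.530 to 0.757 CPM in DMSO 1 and 2, and Hnf4a, Cdx2 and Pdx1 had 0 reads in every library of the ENMD-2076 set. Reads on 4 Y-linked genes numbered 1004 to 7021 per library in the TAK901 set and 0 in every library of the ENMD-2076 set. Summed epithelial markers were 3774 to 6161 CPM over the 12 libraries, although the mammary lineage markers Krt5 and Elf5 had at most 6 and 2 reads in a library. Krt14 of the same list had 5 to 1667 reads. The sum hides differences between the sets. Of the list's 10 genes tested, 4 were higher and 4 lower in DMSO 3 and 4 (edgeR, adjusted p under 0.05). Of all genes tested, 36.6% were higher and 30.6% lower. Mean Epcam was 352 CPM in DMSO 1 and 2 and 88.5 CPM in DMSO 3 and 4, and mean Krt19 67.1 and 921 CPM. Fibroblast, haematopoietic and endothelial markers summed to at most 44.4, 27.7 and 5.84 CPM in any library. Each compound was therefore read against the DMSO libraries of its own set. The labels name the same line for both sets, and whether both hold the same cells was not tested. The TAK901 results below are thus results of libraries labelled 4T1. The libraries held 14418492 to 30866819 gene reads each, apart from 6004077 and 3746588 with 2 µM TAK901.

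Promoters of members are shown first, and no link between promoter letters and the responses was tested. The RefSeq promoter table (GRCm38.p6) held entries for 33 of the 37 genes, without Spc24, Nsl1, Ska1 and Zwilch. CCAAT boxes, read by NF-Y, and the cell cycle homology region (CHR), read by the MuvB complexes, are known elements of late cell cycle promoters. Windows of 300 bases, from 250 before the start to 50 after it, were searched on both strands for CCAAT and for the CHR in its canonical form, TTTGAA, and a variant form that reads the same on both strands, TTCGAA. Among the windows of members, the CCAAT box stood in 24 of 33 (72.7%), against 41.1% of the 27025 genes in the table. A CHR stood in 17 of 33 (51.5%), against 21.7% of all genes. E2F letters (TTTCCCGC, besides TTTGGCGC, besides TTTCGCGC, besides TTTGCCGC) stood in 3 of 33 (9.1%), Cenpl, Cenpm and Dsn1, against 2.6% of all genes. Overlapping matches of different motifs were both counted. These are matches of letters and not measured binding.

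In the checkpoint layer, the stretches from 100 bases before the start to 30 after it are given for Bub1 (chr2:127831830-127831959, minus strand), Ttk (chr9:83834589-83834718, plus strand) and Bub3 (chr7:131560270-131560399, plus strand), because these were the layer's extremes among the responses to ENMD-2076 below. Capitals mark CCAAT or CHR matches on either strand. All of these stretches hold 2 CCAAT matches and 1 CHR match.
Bub1: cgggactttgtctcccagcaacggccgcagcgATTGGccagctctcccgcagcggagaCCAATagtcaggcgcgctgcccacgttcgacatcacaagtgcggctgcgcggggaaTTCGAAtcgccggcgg
Ttk: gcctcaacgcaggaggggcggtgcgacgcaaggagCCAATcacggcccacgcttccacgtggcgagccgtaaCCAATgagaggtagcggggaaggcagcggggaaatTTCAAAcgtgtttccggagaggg
Bub3: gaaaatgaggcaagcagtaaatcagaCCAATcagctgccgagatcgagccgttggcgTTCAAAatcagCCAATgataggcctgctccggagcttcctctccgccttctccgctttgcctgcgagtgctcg

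For the outer layer the same stretches are given for the NDC80 complex genes Ndc80 (chr17:71526828-71526957, minus strand), Nuf2 (chr1:169531435-169531564, minus strand) and Spc25 (chr2:69206184-69206313, minus strand), whose transcripts went apart at 2.5 µM, and for Cenpf (chr1:189688057-189688186, minus strand) and Kntc1 (chr5:123749626-123749755, plus strand), a corona gene low at both doses and the gene with the largest fall. The genes printed were chosen with their values and matches in view. Ndc80 and Nuf2 show no match in this stretch, although Ndc80 has a CHR elsewhere in its window, Spc25 shows 2 CCAAT matches and 1 CHR match, and Cenpf and Kntc1 show 1 of each. In Kntc1 the 2 motifs share a base.
Ndc80: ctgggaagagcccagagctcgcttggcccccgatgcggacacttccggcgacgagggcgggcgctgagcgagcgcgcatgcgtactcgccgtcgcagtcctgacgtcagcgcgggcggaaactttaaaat
Nuf2: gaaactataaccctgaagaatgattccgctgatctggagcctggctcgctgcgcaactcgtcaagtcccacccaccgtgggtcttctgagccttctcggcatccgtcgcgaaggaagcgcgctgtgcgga
Spc25: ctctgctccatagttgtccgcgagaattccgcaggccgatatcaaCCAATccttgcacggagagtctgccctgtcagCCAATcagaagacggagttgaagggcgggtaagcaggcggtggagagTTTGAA
Cenpf: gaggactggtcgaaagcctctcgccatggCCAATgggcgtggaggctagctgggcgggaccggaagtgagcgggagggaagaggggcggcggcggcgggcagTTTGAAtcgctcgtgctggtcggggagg
Kntc1: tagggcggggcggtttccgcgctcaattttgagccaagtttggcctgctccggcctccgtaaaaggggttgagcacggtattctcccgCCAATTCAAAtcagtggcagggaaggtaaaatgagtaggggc

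With 1.25 µM ENMD-2076, 36 of the 37 genes fell and none rose (edgeR quasi-likelihood test, Benjamini-Hochberg adjusted p under 0.05). Of all 15375 genes tested, 45.9% changed, 22.6% higher and 23.2% lower. The median log2 fold change was -2.86 over the members, against 0.00 over all genes tested. The layers were alike: 13 of 13 inner genes fell (median -2.78), 16 of 17 outer genes fell (median -2.87), and 7 of 7 checkpoint and shugoshin genes fell (median -2.88). In 31 of the 37 the fall was larger than 1 on the log2 scale. The exception was Mis12, a subunit of the complex that links inner and outer layers, at -0.15. The summed level of the 37 genes was 575 and 582 CPM with 1.25 µM, against 2144 and 2081 CPM in DMSO 1 and 2. Zwint alone made up 236 and 228 CPM of that sum with 1.25 µM, and 260.2 and 272 CPM in DMSO 1 and 2. Mitochondrially encoded genes took 6.21 and 7.09% of reads at this dose, against 3.92 and 4.13% in DMSO 1 and 2, and the part of that in the result was not tested. Under all 5 scalings and tests compared, 1 of them without mitochondrial genes in the scaling, 36 members were called lower. Haematopoietic markers summed to 23.7 to 27.7 CPM with 1.25 µM, against 11.4 to 13.3 CPM in DMSO 1 and 2, with Cd3e, Adgre1 and Hba-a1 among the markers at 0. Of these markers Csf1r, a macrophage receptor, had 8.94 and 12.9 CPM with 1.25 µM, against 0.108 and 0.825 CPM in DMSO 1 and 2 (log2 fold change 4.59 ± 0.44, adjusted p = 2.3e-10, edgeR), and Cd68 had 14.7 and 14.7 CPM, against 11 and 12.3 CPM. The basal keratin gene Krt14 had 56.4 and 53.7 CPM with 1.25 µM, against 0.649 and 0.295 CPM in DMSO 1 and 2 (log2 fold change 6.82 ± 0.27, adjusted p = 8.0e-20, edgeR). These 3 genes were chosen after their values were seen, and their part in the result was not tested.

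**Figure D1:**
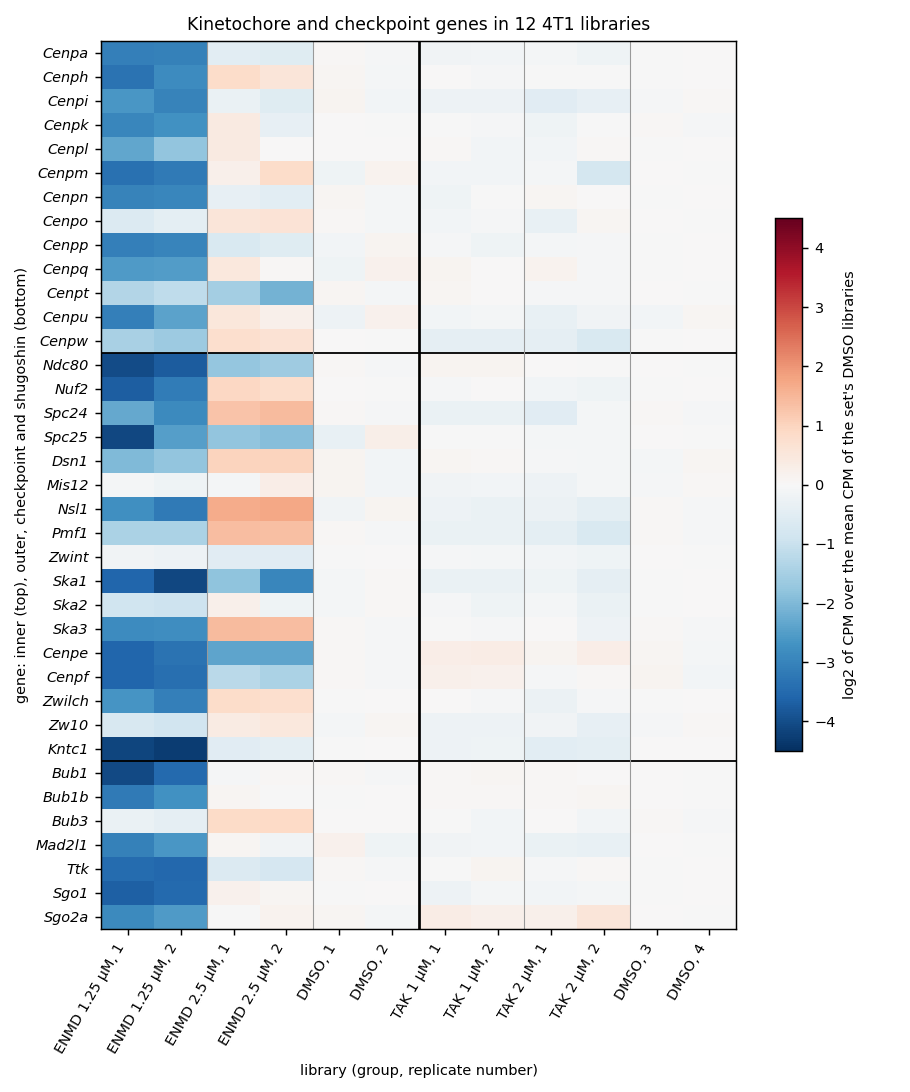
Each row is a gene and each column a library, coloured by log2 of its TMM-normalised CPM over the mean of the DMSO libraries of its own set, blue for lower and red for higher. The ENMD-2076 1.25 µM libraries are blue in nearly every row, the 2.5 µM libraries mix red and blue with TMM scaling, and the TAK901 libraries are pale, with all their fitted log2 fold changes between -0.54 and 0.38.

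In the inner layer, Cenpa encodes the centromeric histone H3 variant (chr5:30666777-30674830, plus strand, GRCm38). It had 17.8 and 18.0 CPM with 1.25 µM and 107 and 103 CPM with 2.5 µM ENMD-2076, against 153 and 144 CPM in DMSO 1 and 2. Both doses lay below both DMSO libraries, and the lower dose lay far below the higher one. Its log2 fold changes were -3.04 ± 0.08 at 1.25 µM (SE, adjusted p = 2.1e-24, edgeR) and -0.49 ± 0.07 at 2.5 µM (adjusted p = 7.7e-08, edgeR).

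Cenpm, which encodes a small subunit of the CENP-H/I/K/M complex, showed the largest fall of the inner layer at 1.25 µM. Its level was 0.550 and 0.612 CPM with 1.25 µM and 6.57 and 10 CPM with 2.5 µM, against 4.92 and 6.25 CPM in DMSO 1 and 2. The lower figure rests on 8 reads in the first library, the smallest count of any member. At 1.25 µM the log2 fold change was -3.22 ± 0.32 (adjusted p = 4.7e-10, edgeR). The other subunits of that complex, Cenph, Cenpi and Cenpk, were at -2.98, -2.86 and -2.78.

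Among the remaining inner genes, the smallest fall was that of Cenpo, a member of the CENP-O/P/Q/U complex. It had 8.04 and 8.99 CPM with 1.25 µM and 17.9 and 18.7 CPM with 2.5 µM, against 12.8 and 11.6 CPM in DMSO 1 and 2. Its libraries did not overlap at either dose. At 1.25 µM it changed by -0.50 ± 0.16 in log2 (adjusted p = 0.00873, edgeR). It was no longer called without DMSO 1 (-0.43, adjusted p = 0.0724, edgeR). Its partners Cenpp, Cenpq and Cenpu were at -2.99, -2.53 and -2.60, and the pair Cenpl and Cenpn at -1.97 and -2.97, all past the threshold.

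Cenpt and Cenpw encode histone-fold partners that bind centromeric DNA and, through CENP-T, the NDC80 complex. Cenpt had 14.2 and 16 CPM with 1.25 µM and 12.4 and 8.23 CPM with 2.5 µM, against 37.9 and 33.5 CPM in DMSO 1 and 2. Cenpw had 4.74 and 4.25 CPM with 1.25 µM and 22.3 and 20.8 CPM with 2.5 µM, against 13.3 and 13.0 CPM in DMSO 1 and 2. Both were below DMSO at the lower dose, and at 2.5 µM they lay on opposite sides of it. At 1.25 µM the log2 fold changes were -1.23 ± 0.12 for Cenpt (adjusted p = 6.6e-10, edgeR) and -1.56 ± 0.17 for Cenpw (adjusted p = 3.5e-09, edgeR). At 2.5 µM they were -1.76 ± 0.14 for Cenpt (adjusted p = 7.0e-13, edgeR) and 0.71 ± 0.15 for Cenpw (adjusted p = 9.8e-05, edgeR). The ratio of Cenpt to Cenpw reads, which no scaling of libraries can move, was 0.555 and 0.396 with 2.5 µM, against 2.85 and 2.57 in DMSO 1 and 2.

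Kntc1, the ROD subunit of the RZZ complex that brings checkpoint proteins and dynein to the outer kinetochore, had the largest fall of all members (chr5:123749716-123821593, plus strand). It stood at 3.44 and 3.12 CPM with 1.25 µM and 41.6 and 43.8 CPM with 2.5 µM, against 58.9 and 60.5 CPM in DMSO 1 and 2. The 3 groups did not overlap. The log2 fold changes were -4.20 ± 0.11 at 1.25 µM (adjusted p = 3.1e-24, edgeR) and -0.49 ± 0.08 at 2.5 µM (adjusted p = 2.2e-06, edgeR). The other RZZ subunits, Zwilch and Zw10, were at -2.91 and -0.79 at the lower dose and at 0.79 and 0.43 at the higher one, where Zw10 was not past the threshold with total counts (0.07).

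Cenpf and Cenpe encode large proteins of the corona, CENP-E being the kinesin that carries chromosomes to the spindle equator. Cenpf had 19.9 and 22.0 CPM with 1.25 µM and 101 and 86.0 CPM with 2.5 µM, against 239.7 and 227 CPM in DMSO 1 and 2. Cenpe had 24.0 and 28.4 CPM with 1.25 µM and 55.6 and 55.3 CPM with 2.5 µM, against 299 and 272 CPM in DMSO 1 and 2. Both genes stayed below DMSO at both doses. For Cenpf the log2 fold changes were -3.46 ± 0.09 at 1.25 µM (adjusted p = 2.1e-24, edgeR) and -1.32 ± 0.08 at 2.5 µM (adjusted p = 6.7e-16, edgeR). For Cenpe they were -3.42 ± 0.08 and -2.37 ± 0.08, with the value at the higher dose being the largest fall of any member at 2.5 µM (adjusted p = 7.9e-22, edgeR).

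Zwint and Mis12 had the smallest changes at the lower dose. Zwint, whose product bridges the outer layer and the RZZ complex, had 236 and 228 CPM with 1.25 µM and 189 and 189 CPM with 2.5 µM, against 260.2 and 272 CPM in DMSO 1 and 2. Its log2 fold changes were -0.20 ± 0.06 at 1.25 µM (adjusted p = 0.0037, edgeR), not past the threshold without DMSO 2 (-0.17, adjusted p = 0.0556, edgeR), and -0.50 ± 0.06 at 2.5 µM (adjusted p = 4.6e-09, edgeR). Mis12 had 23.6 and 21.7 CPM with 1.25 µM and 23.4 and 30.7 CPM with 2.5 µM, against 26.9 and 22.9 CPM in DMSO 1 and 2. Its groups overlapped, and neither dose passed the threshold (adjusted p = 0.336 and 0.458, edgeR). Mis12 overlaps Derl2 on the other strand, and whether reads were counted by strand is not given in the sources used here. The same limit holds for Cenpk, Cenpo, Cenpp, Cenpq, Cenpt, Cenpu, Ska3, Zwilch, Bub3 and Sgo2a, each of which overlaps a protein-coding gene on the other strand.

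In the checkpoint layer, Bub1, a kinase that marks kinetochores for shugoshin and checkpoint binding, fell most (chr2:127801122-127831865, minus strand). It had 6.81 and 10 CPM with 1.25 µM and 108 and 116 CPM with 2.5 µM, against 117 and 108 CPM in DMSO 1 and 2. The lower dose lay far below DMSO, and the higher dose overlapped it. The log2 fold changes were -3.67 ± 0.10 at 1.25 µM (adjusted p = 1.4e-23, edgeR) and -0.01 ± 0.08 at 2.5 µM (adjusted p = 0.941, edgeR).

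Bub1b encodes BUBR1, part of the complex that inhibits the anaphase-promoting complex. It had 13.5 and 18.4 CPM with 1.25 µM and 129.9 and 119 CPM with 2.5 µM, against 121 and 122 CPM in DMSO 1 and 2. At 1.25 µM its log2 fold change was -2.88 ± 0.09 (adjusted p = 2.1e-22, edgeR). At 2.5 µM it was 0.04 ± 0.07 (adjusted p = 0.687, edgeR), and the sign there turned with the scaling, at 0.20 with size factors and -0.32 with total counts, past the threshold in both.

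Bub3, the partner of BUB1 and BUBR1, had the smallest fall of this layer at 1.25 µM. It had 87.1 and 80.0 CPM with 1.25 µM and 191 and 199 CPM with 2.5 µM, against 106 and 106 CPM in DMSO 1 and 2. Its log2 fold changes were -0.35 ± 0.07 at 1.25 µM (adjusted p = 8.7e-05, edgeR) and 0.88 ± 0.07 at 2.5 µM (adjusted p = 5.4e-13, edgeR). Ttk, the kinase that starts checkpoint signalling, had 5.02 and 4.86 CPM with 1.25 µM and 36.4 and 33.5 CPM with 2.5 µM, against 57.4 and 54.4 CPM in DMSO 1 and 2. Its log2 fold changes were -3.51 ± 0.11 (adjusted p = 7.2e-22, edgeR) and -0.67 ± 0.09 (adjusted p = 1.1e-07, edgeR), so that Ttk was the only gene of this layer called lower at 2.5 µM and Bub3 the only one called higher, with TMM scaling. Mad2l1, Sgo1 and Sgo2a were at -2.76, -3.57 and -2.67 at 1.25 µM, all past the threshold, and stood at -0.02, 0.15 and 0.06 at 2.5 µM, where none passed with TMM scaling. With total counts Mad2l1, Sgo1 and Bub1 were called lower (-0.38, -0.21 and -0.37), and with size factors Sgo1 was called higher (0.30).

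At 2.5 µM ENMD-2076 the 37 genes no longer moved one way. With TMM scaling 13 were higher, 13 lower and 11 not past the threshold, where 70.3% of all genes tested changed, 33.2% higher and 37.1% lower, and the share of members called was close to that of all genes. The median log2 fold change was 0.10, against -0.02 over all genes tested. By layer there were 4 higher and 5 lower of 13 inner genes (median 0.22), 8 higher and 7 lower of 17 outer genes (median 0.10), and 1 higher and 1 lower of 7 checkpoint and shugoshin genes (median 0.04). The split depended on the scaling, with 18 higher and 10 lower under DESeq2 size factors and 10 higher and 18 lower under total counts, which moved the median of all genes to -0.37. Under all 5 settings 10 genes were called lower (2 inner, 7 outer, 1 checkpoint) and 10 were called higher (2 inner, 7 outer, 1 checkpoint). The share of all genes called under all 5 settings is not given here, so these counts do not set the members or a layer apart. TMM factors were 0.766 and 0.784 at this dose, against 0.996 and 0.989 in DMSO 1 and 2, and mitochondrially encoded genes took 8.83 and 8.72% of reads. Summed epithelial markers were 3774 to 3882 CPM, against 4905 to 5007 CPM in DMSO 1 and 2. Endothelial markers summed to 3.66 to 5.84 CPM, against 0.766 to 0.811 CPM, and haematopoietic markers to 7.26 to 7.70 CPM, against 11.4 to 13.3 CPM. The noncoding RNA Gm26917 took 0.219 and 0.200% of reads, against 0.00365 and 0.00299% in DMSO 1 and 2. The part of any of these in the result was not tested. Without mitochondrial genes, Gm26917 and Gm42418 in the scaling the split was 16 higher and 13 lower.

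**Figure D2:**
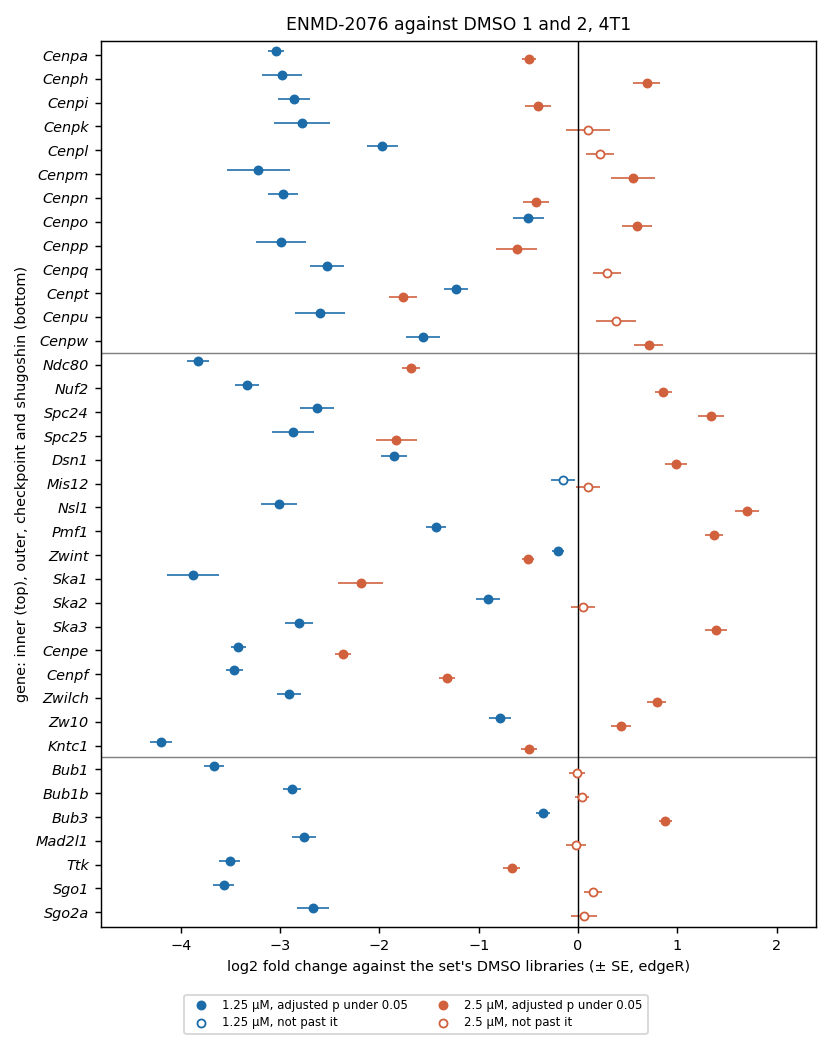
Log2 fold change with its SE (horizontal bars) for each gene at 1.25 µM (blue) and 2.5 µM (orange) ENMD-2076 against DMSO 1 and 2, filled where the adjusted p was under 0.05. Blue points lie between -4.20 and -0.15, and orange points spread from -2.37 to 1.70, where those near 0 change side with the scaling.

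Subunits of one complex went in opposite directions at this dose, where 33.2% of all genes tested were higher and 37.1% lower. At such shares, opposite calls within a complex do not set it apart from other genes. The 4 subunits of the NDC80 complex, the microtubule-binding rod of the outer layer, were taken up after their values were seen. Ndc80 had 5.16 and 6.25 CPM with 1.25 µM and 25.0 and 27.2 CPM with 2.5 µM, against 86.5 and 80.3 CPM in DMSO 1 and 2. Its dimer partner Nuf2 had 3.64 and 5.38 CPM with 1.25 µM and 90.4 and 83.8 CPM with 2.5 µM, against 48.3 and 47.6 CPM in DMSO 1 and 2. Thus Ndc80 was below and Nuf2 above both DMSO libraries at 2.5 µM, with log2 fold changes of -1.68 ± 0.09 (adjusted p = 1.1e-16, edgeR) and 0.86 ± 0.09 (adjusted p = 2.3e-10, edgeR). The ratio of Ndc80 to Nuf2 was 1.42 and 1.16 with 1.25 µM and 0.277 and 0.325 with 2.5 µM, against 1.79 and 1.69 in DMSO 1 and 2.

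The other dimer, Spc24 and Spc25, also split. Spc25 had 1.44 and 4.41 CPM with 1.25 µM and 7.20 and 6.46 CPM with 2.5 µM, against 19.6 and 29.5 CPM in DMSO 1 and 2. Spc24 had 3.78 and 2.54 CPM with 1.25 µM and 44.9 and 49.6 CPM with 2.5 µM, against 19.4 and 17.7 CPM in DMSO 1 and 2. Spc25 varied more between replicates than its partners, yet its groups did not overlap. At 2.5 µM the log2 fold changes were -1.83 ± 0.21 for Spc25 (adjusted p = 3.1e-09, edgeR) and 1.34 ± 0.13 for Spc24 (adjusted p = 1.2e-10, edgeR). All 4 genes of the complex kept these directions under the 5 scalings and tests.

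**Figure D3:**
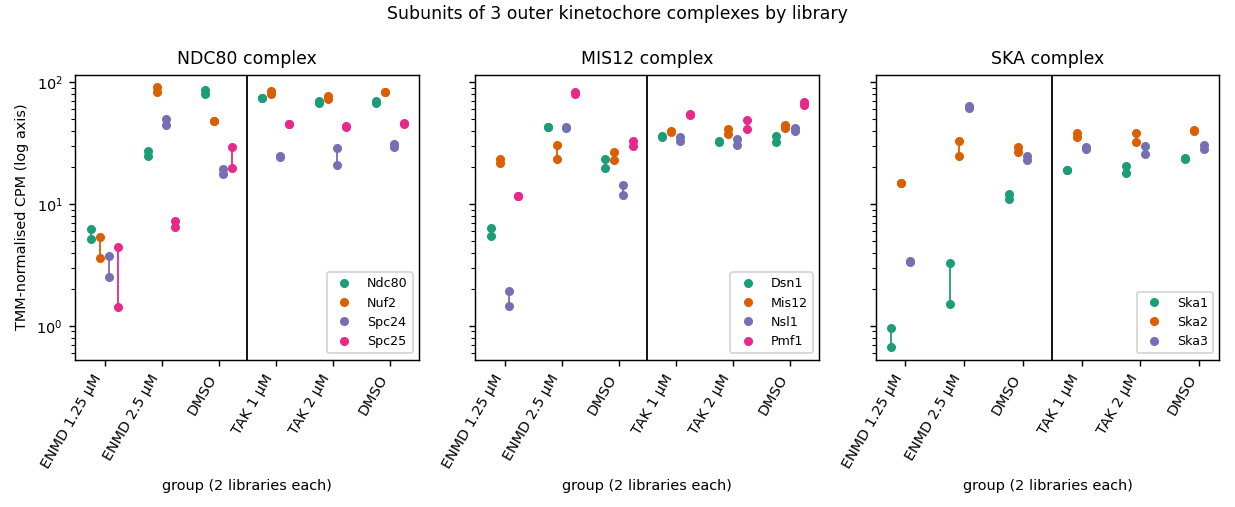
TMM-normalised CPM on a log axis for the subunits of the NDC80, MIS12 and SKA complexes, each point a library, with a line joining the 2 libraries of a group and a bar between the 2 sets. At ENMD-2076 2.5 µM, Ndc80 (25.0 and 27.2 CPM), Spc25 and Ska1 lie below DMSO 1 and 2, while Nuf2 (90.4 and 83.8 CPM), Spc24, Nsl1, Pmf1 and Ska3 lie above, and in the TAK901 set the groups lie close together.

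The SKA complex, which helps kinetochores follow shrinking microtubule ends, split likewise. Ska1 had 0.963 and 0.676 CPM with 1.25 µM and 3.28 and 1.5 CPM with 2.5 µM, against 10.9 and 12 CPM in DMSO 1 and 2. Ska3 had 3.37 and 3.41 CPM with 1.25 µM and 63.5 and 61.8 CPM with 2.5 µM, against 24.9 and 22.8 CPM in DMSO 1 and 2. The genes lay on opposite sides of DMSO at 2.5 µM, at -2.19 ± 0.23 for Ska1 (adjusted p = 6.5e-10, edgeR) and 1.39 ± 0.11 for Ska3 (adjusted p = 4.5e-13, edgeR). Ska2, the remaining subunit, was at 0.05 and did not pass.

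In the MIS12 complex, which ties the NDC80 complex to the inner layer, 3 of 4 genes rose at 2.5 µM, where 33.2% of all genes tested were higher. Nsl1 had the largest rise of any member, with 1.93 and 1.45 CPM with 1.25 µM and 41.7 and 43.1 CPM with 2.5 µM, against 11.8 and 14.3 CPM in DMSO 1 and 2. It lay below both DMSO libraries at the lower dose and above both at the higher, at -3.01 ± 0.18 (adjusted p = 5.0e-15, edgeR) and 1.70 ± 0.12 (adjusted p = 1.3e-13, edgeR). Pmf1 had 11.6 and 11.6 CPM with 1.25 µM and 82.6 and 79.2 CPM with 2.5 µM, against 32.6 and 29.8 CPM in DMSO 1 and 2. Its log2 fold changes were -1.43 ± 0.10 and 1.37 ± 0.09 (adjusted p = 5.2e-13 and 1.4e-14, edgeR). Dsn1 was at -1.85 and 0.99.

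Set directly against 1.25 µM, the 2.5 µM libraries had 34 of the 37 genes higher and 2 lower, where 73.3% of all genes tested differed, 35.4% higher and 37.8% lower. The median log2 difference was 2.73 over the members, against -0.00 over all genes and -0.38 over all genes with total counts. Cenpt (-0.54 ± 0.15, adjusted p = 0.00152, edgeR) and Zwint (-0.30 ± 0.06, adjusted p = 3.1e-05, edgeR) were the 2 lower at 2.5 µM. The largest difference was that of Nsl1 (4.71 ± 0.16, adjusted p = 1.3e-21, edgeR), and Mis12 did not pass (0.25). Medians were 2.55 for the inner, 2.15 for the outer and 2.83 for the checkpoint and shugoshin genes. This comparison uses the same ENMD-2076 libraries as those against DMSO and is no separate evidence.

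Among members with an entry, a CHR stood in the 300-base window of 7 of 12 called lower at 2.5 µM (58.3%), 6 of 10 called higher (60%) and 4 of 11 not past the threshold (36.4%). CCAAT stood in 9 of 12 called lower (75.0%), 5 of 10 called higher (50%) and 10 of 11 not past it (90.9%). In the 130-base stretch nearest the start, CCAAT stood in 9 of 12 called lower (75.0%), 2 of 10 called higher (20%) and 9 of 11 not past the threshold (81.8%), against 24.5% of all genes in the table. A CHR stood there in 6 of 12 called lower (50%), 4 of 10 called higher (40%) and 1 of 11 not past the threshold (9.1%), against 8.8% of all genes. These groups rest on the calls with TMM scaling, which changed with the scaling. Of the members without an entry, Spc24, Nsl1 and Zwilch were called higher and Ska1 lower. The counts are small and were not tested.

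With TAK901 the same genes stayed near their DMSO levels. At 1 µM, 3 of 37 were called (1 higher, 2 lower), where 9.14% of all genes tested changed (3.97% higher, 5.17% lower), so the share was close to that of all genes, and 9 had an unadjusted p under 0.05. The median log2 fold change was -0.07, against 0.00 over all genes tested. At 2 µM, 4 of 37 were called, all lower, where 14.9% of all genes changed (5.63% higher, 9.28% lower), and 12 had an unadjusted p under 0.05. The median was -0.12, against -0.02 over all genes. Summed levels were 2561 and 2559 CPM with 1 µM and 2394 and 2416 CPM with 2 µM, against 2598 and 2507 CPM in DMSO 3 and 4. Between 2 µM and 1 µM edgeR called 0 members and DESeq2 also 0, where 0.0715% of all genes were called (0.0455% higher, 0.0260% lower). Before adjustment edgeR gave 3 members a p under 0.05.

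These counts changed with the libraries in the fit. In fits of the 6 libraries of the TAK901 set alone, 12 members were called at 1 µM (3 higher, 9 lower), where 21% of all genes tested were called, and 8 at 2 µM (2 higher, 6 lower), where 23.3% were. At 1 µM the count was 0 without TAK901 1 µM replicate 2 or without DMSO 4, 1 without TAK901 1 µM replicate 1, and 5 without ENMD-2076 1.25 µM replicate 1. At 2 µM it was 2 without either TAK901 2 µM library or without DMSO 4, and 7 and 8 without ENMD-2076 1.25 µM replicate 1 and replicate 2. With other scalings the split at 2 µM was 2 higher and 4 lower (size factors) or 2 higher and 2 lower (total counts). At 1 µM it was 1 higher and 1 lower or 2 higher and 1 lower. Shares of all genes called without 1 library or with another scaling are not given here.

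Pmf1, of the MIS12 complex, was lower at both doses. It had 54.8 and 53.7 CPM with 1 µM and 49.1 and 41.3 CPM with 2 µM TAK901, against 68.7 and 64.9 CPM in DMSO 3 and 4. No TAK901 library reached the DMSO levels. The log2 fold changes were -0.30 ± 0.08 at 1 µM (adjusted p = 0.0193, edgeR) and -0.54 ± 0.10 at 2 µM (adjusted p = 2.0e-04, edgeR). Kntc1 had 107 and 111 CPM with 1 µM and 91.2 and 93.6 CPM with 2 µM, against 126 and 126 CPM in DMSO 3 and 4, and its log2 fold changes were -0.21 ± 0.07 (adjusted p = 0.0488, edgeR) and -0.45 ± 0.08 (adjusted p = 9.0e-05, edgeR). The call of Kntc1 at 1 µM held in 1 of the 5 scalings and tests, that of the fit reported, and the call at 2 µM in all 5.

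Cenpe was the 1 member called higher. It had 263 and 268 CPM with 1 µM and 233 and 259 CPM with 2 µM, against 226 and 199.5 CPM in DMSO 3 and 4. All TAK901 libraries were above both DMSO libraries, which differed from each other by more than DMSO 3 differed from the nearest TAK901 library. With 1 µM its change was 0.32 ± 0.07 (adjusted p = 0.00216, edgeR), lost without DMSO 4 (0.23, adjusted p = 0.152, edgeR) or without TAK901 1 µM replicate 2 (0.31, adjusted p = 0.061, edgeR). At 2 µM it was 0.21 ± 0.07 (adjusted p = 0.0565, edgeR).

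Mad2l1, the MAD2 checkpoint protein, had 115 and 117 CPM with 1 µM and 104 and 102 CPM with 2 µM, against 129 and 127 CPM in DMSO 3 and 4. It was called only at 2 µM (-0.32 ± 0.10, adjusted p = 0.0258, edgeR), and lost that call without any single library of the 2 groups compared (adjusted p between 0.093 and 0.189, edgeR) and with total counts or DESeq2. Cenpi, the remaining call at 2 µM, was at -0.44 ± 0.14 (adjusted p = 0.0255, edgeR), with 27.6 and 30.5 CPM, against 37.7 and 40.5 CPM in DMSO 3 and 4. It lost that call with total counts (-0.38) and DESeq2 (-0.41).

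Other extremes did not pass in the fit of all 12 libraries. Cenpw, the lowest inner gene at both doses, had 11.6 and 11.6 CPM with 1 µM and 11.6 and 9.55 CPM with 2 µM, against 15.2 and 15.7 CPM in DMSO 3 and 4, at -0.41 ± 0.15 (adjusted p = 0.0768, edgeR) and -0.52 ± 0.18 (adjusted p = 0.0507, edgeR). All 4 TAK901 libraries lay below both DMSO libraries. Sgo2a, a shugoshin, had 31.2 and 28.9 CPM with 1 µM and 28.8 and 36.0 CPM with 2 µM, against 25.1 and 24.0 CPM in DMSO 3 and 4, at 0.29 ± 0.12 (adjusted p = 0.154, edgeR) and 0.38 ± 0.14 (adjusted p = 0.0671, edgeR). Within the TAK901 set alone both genes passed at both doses, Cenpw at -0.41 (adjusted p = 0.00662, edgeR) and -0.49 (adjusted p = 0.0189, edgeR) and Sgo2a at 0.29 (adjusted p = 0.016, edgeR) and 0.40 (adjusted p = 0.00912, edgeR). Ska1, the lowest outer gene at 1 µM by a narrow margin, was at -0.30 and -0.28. Within the TAK901 set alone Ska1 passed at 1 µM (-0.30, adjusted p = 0.0148, edgeR). Cenpq, the highest inner gene, was at 0.07 and 0.08.

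**Figure D4:**
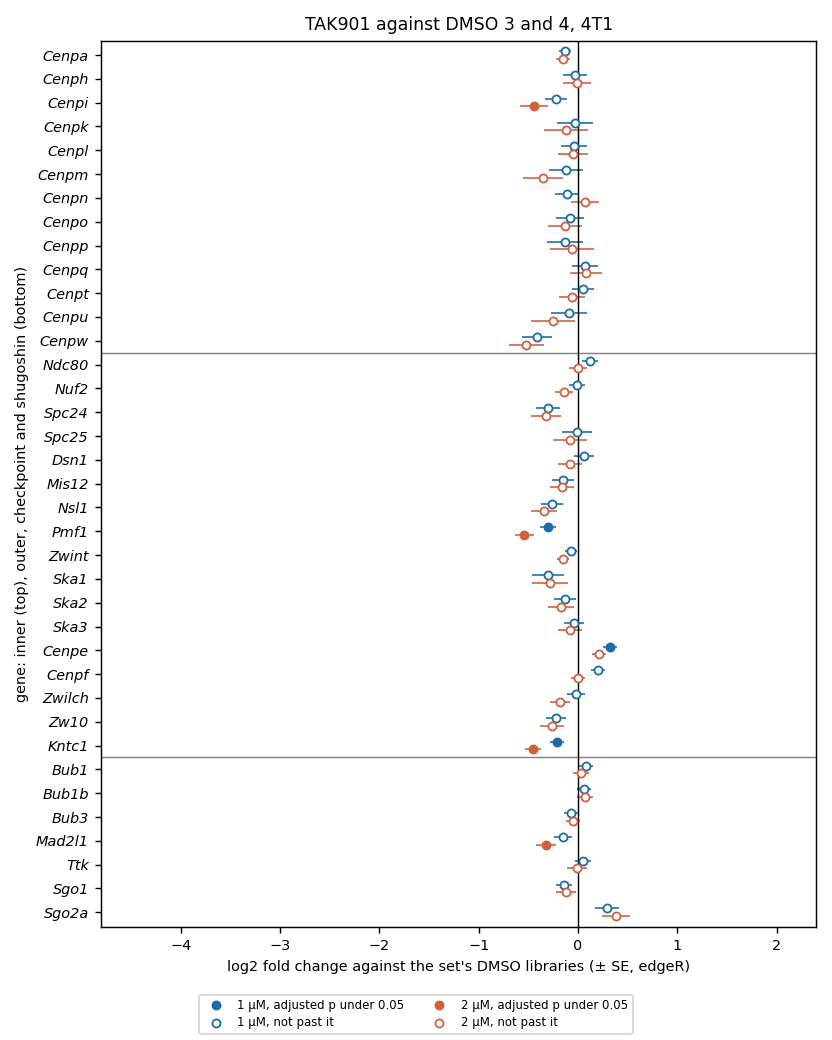
Log2 fold change with its SE for each gene at 1 µM (blue) and 2 µM (orange) TAK901 against DMSO 3 and 4, on the same horizontal scale as for ENMD-2076, filled where the adjusted p was under 0.05. All points lie between -0.54 (Pmf1, 2 µM) and 0.38 (Sgo2a, 2 µM), and 3 are filled at 1 µM and 4 at 2 µM.

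Ratios of subunit pairs that split with 2.5 µM ENMD-2076 were also taken with TAK901. The ratio of Ndc80 to Nuf2 was 0.928 and 0.879 with 1 µM and 0.906 and 0.925 with 2 µM TAK901, against 0.847 and 0.812 in DMSO 3 and 4. The ratio of Ska1 to Ska3 was 0.649 and 0.671 with 1 µM and 0.690 and 0.701 with 2 µM, against 0.755 and 0.837 in DMSO 3 and 4. The ratio of Cenpt to Cenpw was 3.89 and 3.65 with 1 µM and 3.45 and 4.25 with 2 µM, against 2.81 and 2.65 in DMSO 3 and 4, and that of Spc25 to Spc24 was 1.88 and 1.84 with 1 µM and 2.08 and 1.51 with 2 µM, against 1.49 and 1.55. All 4 TAK901 libraries lay below both DMSO libraries for Ska1 to Ska3, and above both for Ndc80 to Nuf2 and Cenpt to Cenpw. The ratio of Spc25 to Spc24 overlapped. With 2.5 µM ENMD-2076 the ratios of Ndc80 to Nuf2 and Cenpt to Cenpw had gone the other way, below DMSO. How often other gene pairs separate so was not counted. For ENMD-2076 the ratio of Ska1 to Ska3 was 0.286 and 0.198 with 1.25 µM and 0.0517 and 0.0243 with 2.5 µM, against 0.439 and 0.527 in DMSO 1 and 2.

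The difference between the responses was itself tested, each response being taken against its own DMSO libraries. Of the 37 genes, 34 responded differently to 1.25 µM ENMD-2076 and 1 µM TAK901, all with the lower value for ENMD-2076, where 31.7% of all genes tested differed, 15.1% higher and 16.6% lower. The median difference of log2 responses was -2.77, against 0.00 over all genes. Cenpo, Mis12 and Zwint did not pass. Between 2.5 µM ENMD-2076 and 2 µM TAK901 the responses of 23 genes differed, 13 higher and 10 lower for ENMD-2076. Of all genes, 61.0% differed, 29.1% higher and 32.0% lower, so the share of members was close to that of all genes. With total counts that split was 9 higher and 15 lower, which moved the median of all genes to -0.43, and with size factors it was 16 higher and 8 lower. Doses and library sets differ between the compounds, so compound, dose and set cannot be told apart in these differences.

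Without any compound the 2 sets differed for 29 of the 37 genes, 25 higher and 4 lower in DMSO 3 and 4 than in DMSO 1 and 2, where 67.3% of all genes tested differed, 36.6% higher and 30.6% lower. The median log2 difference was 0.57, against 0.08 over all genes and 0.19 over all genes with total counts. Medians were 0.58 for inner, 0.67 for outer and 0.28 for checkpoint and shugoshin genes. Cenpm differed most, at 21.6 and 21.0 CPM in DMSO 3 and 4, against 4.92 and 6.25 CPM in DMSO 1 and 2 (log2 difference 1.93 ± 0.19, adjusted p = 3.2e-10, edgeR). Zwint (-0.67), Cenpe (-0.43), Ndc80 (-0.28) and Cenpa (-0.15) were the 4 lower in DMSO 3 and 4. Under size factors 3 and under total counts 2 genes were lower.

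Per kilobase of all annotated exons merged, Zwint had the highest mean over the 12 libraries, 43.7 CPM per kilobase. Merged exons can be longer than the transcript in use, so the order of genes is rough. The merged lengths of Zwint, Cenpk and Cenpo were 4434, 5231 and 7263 bases. Bub1b (34.1), Bub1 (25.1) and Cenpe (21.1 CPM per kilobase) came next, although with TAK901 and in DMSO 3 and 4 Bub1b (48.4 with 1 µM, 48.6 with 2 µM and 46.4 CPM per kilobase in DMSO) stood above Zwint (35.9, 33.9 and 37.7 CPM per kilobase), and Cenpk (1.62) and Cenpo (2.10 CPM per kilobase) were lowest. Summed CPM by layer showed the layers moving together with 1.25 µM and less so with 2.5 µM. Inner genes summed to 63.5 and 68.7 CPM with 1.25 µM and 306 and 273 CPM with 2.5 µM, against 345 and 332 CPM in DMSO 1 and 2. Outer genes summed to 385 and 382 CPM with 1.25 µM and 952 and 933 CPM with 2.5 µM, against 1257 and 1231 CPM in DMSO 1 and 2. Of the outer sum Zwint alone, with a log2 fold change of -0.20, made up 236 and 228 CPM with 1.25 µM. In DMSO 1 and 2 it made up 260.2 and 272 CPM. Checkpoint and shugoshin genes summed to 127 and 131 CPM with 1.25 µM and 612 and 603 CPM with 2.5 µM, against 542 and 518 CPM in DMSO 1 and 2. The layers were thus all below DMSO at 1.25 µM, and at 2.5 µM the checkpoint sum alone lay above it, with TMM scaling. Without Bub3 that sum was 421 and 404 CPM with 2.5 µM, against 437 and 412 CPM in DMSO 1 and 2.

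Other genes of the pathway were counted beside the members, from lists drawn up by function with earlier results of these data known. Of 17 further kinetochore and centromere genes, 14 fell and none rose with 1.25 µM ENMD-2076 (median -1.5). Of all genes tested, 23.2% were lower and 22.6% higher. Knl1, the platform for BUB proteins, fell by 3.73 ± 0.15 on the log2 scale (adjusted p = 1.2e-19, edgeR), Hjurp, the CENP-A chaperone, was at -1.5 and Nde1, a dynein regulator, at -0.90, both past the threshold. Cenpb, which binds a satellite DNA motif, was at -0.11 and did not pass. At 2.5 µM, 7 of the 17 were higher and 9 lower (median -0.40), with Knl1 at -1.92 and Nde1 at -1.14. There 33.2% of all genes were higher and 37.1% lower. With TAK901, 1 and 3 of the 17 were lower at 1 and 2 µM, where 5.17% and 9.28% of all genes were lower.

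The chromosomal passenger complex carries Aurora B to the centromere. Its 4 subunits and haspin fell in 5 of 5 cases with 1.25 µM (median -2.72), where 23.2% of all genes tested were lower. Aurkb, the kinase itself, had 2.89 and 3.51 CPM with 1.25 µM and 35.6 and 37.2 CPM with 2.5 µM ENMD-2076, against 58.0 and 51.7 CPM in DMSO 1 and 2. For Aurkb the log2 fold changes were -4.06 ± 0.12 (adjusted p = 7.4e-23, edgeR) and -0.60 ± 0.09 (adjusted p = 6.0e-07, edgeR). Birc5, Cdca8 and Incenp, its partners, were at -3.70, -2.72 and -2.53 at 1.25 µM, all past the threshold. At 2.5 µM 3 of the 5 were higher and 1 lower (median 0.23), where 33.2% of all genes were higher and 37.1% lower. Total counts moved the median of all genes to -0.37. With TAK901 edgeR called 0 of the 5 at either dose, although 2 had an unadjusted p under 0.05 at each. Of all genes tested, 9.14% were called at 1 µM and 14.9% at 2 µM.

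Of 21 genes of the anaphase-promoting complex and its regulators 12 fell and 5 rose with 1.25 µM ENMD-2076 (median -0.29). Of all genes tested, 23.2% were lower and 22.6% higher at this dose. Anapc5 and Anapc1, core subunits, were at -0.29 and -0.31, Anapc2 was at 0.31, and Espl1, which encodes separase and was chosen after its value was seen, was at -4.0. Of 13 cohesin genes 8 fell and 1 rose (median -0.23), Rad21 and Smc1a at -0.58 and -0.64 and Smc3 at -0.22, with the loader Nipbl at 0.12, not past the threshold. At 2.5 µM the first list had 9 higher (42.9%) and 8 lower (38.1%), and the second 4 higher (30.8%) and 5 lower (38.5%), against 33.2% higher and 37.1% lower of all genes tested.

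The replicative helicase and its loading factors, which act in S phase, fell in 17 of 17 cases with 1.25 µM (median -1.70), and at 2.5 µM 14 of 17 were higher and 1 lower (median 1.53). Of all genes tested, 23.2% were lower at 1.25 µM, and 33.2% were higher and 37.1% lower at 2.5 µM. Mcm3 had 23.5 and 25.6 CPM with 1.25 µM and 936 and 933 CPM with 2.5 µM ENMD-2076, against 118 and 116 CPM in DMSO 1 and 2. For Mcm3 the log2 fold changes were -2.24 ± 0.07 (adjusted p = 3.1e-22, edgeR) and 3.0 ± 0.06 (adjusted p = 8.5e-27, edgeR). With TAK901 9 of the 17 were lower at 1 µM (median -0.24) and 14 at 2 µM (median -0.46), where the kinetochore and checkpoint genes had medians of -0.07 and -0.12. Of all genes tested, 5.17% were lower at 1 µM and 9.28% at 2 µM. The lists hold different numbers of genes at different levels, and no test between them was made.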

How the data were processed

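RNA of 12 libraries labelled 4T1 was used, and the 10 MDA-MB-231 libraries were not used here. The authors deposited raw read counts per gene, 1 table per library, with FastQC 0.11.3, Bowtie, TopHat, HTSeq, DESeq2 and mm10 named in the submitters' processing notes. Whether reads were counted by strand is not given in the sources used here. Names and coordinates come from GENCODE vM21 (GRCm38), with ID versions ignored, and promoters from RefSeq (GRCm38.p6).

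Counts were fitted with edgeR 4.0.16 in R 4.3.3 (limma 3.58.1): filterByExpr left 15375 genes, all 37 members among them, TMM scaling, 6 group means over 12 libraries (6 residual degrees of freedom), quasi-likelihood tests and Benjamini-Hochberg adjustment over all genes. SEs were derived from the F statistic. Levels are TMM-normalised CPM, and CPM per kilobase divides by the merged length of all annotated exons of a gene. The test was checked on simulated data. Genes named are, in each layer, the 2 with the highest mean CPM and the largest rise and fall in each comparison with DMSO, and in other lists the up to 4 most abundant. Ndc80, Nuf2, Spc24, Spc25, Ska3, Cenpi and Espl1 were chosen after their values were seen. Alternatives were other scalings, DESeq2 1.42.0, no filter, fewer libraries and a replicate block. Same-numbered libraries did not deviate together (correlations -0.0129, 0.0196, -0.0110 and 0.0221). The 2 libraries of a group differed by more than sampling noise (chi-square per degree of freedom 2.39 to 7.32). Members and lists were chosen with earlier results of these data known.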

Additional observations from a re-analysis of the deposited data

Results flagged for a closer look

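The tested difference between responses picked out 2 counts. Between 1.25 µM ENMD-2076 and 1 µM TAK901, each against its own DMSO libraries, 34 of the 37 genes responded differently in edgeR's interaction contrast, 0 higher and 34 lower for ENMD-2076, and the count was 33 to 34 when any 1 library was left out. For the higher doses, 2.5 µM for ENMD-2076 and 2 µM for TAK901, 23 genes responded differently, 13 higher and 10 lower, and the count was 20 to 26 when any 1 library was left out. With all 12 libraries, 31.7% of all genes tested differed in the first contrast and 61.0% in the second. In the second the share of members was close to that of all genes. Compound, dose and library set cannot be told apart in either contrast. Groups of 2 libraries are too small for an outlier check.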

How the results depend on the processing

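Leaving out 1 of the 12 libraries at a time gave 35 to 36 members called for ENMD-2076 1.25 µM, 24 to 30 for 2.5 µM, 35 to 37 between these doses, 0 to 5 for TAK901 1 µM, 2 to 8 for TAK901 2 µM, 0 to 0 between those doses, and 27 to 30 between the DMSO sets. Where a group is left with 1 library, that library is assumed to vary like the other groups. With all 12 libraries, 45.9% of all genes tested were called for ENMD-2076 1.25 µM, 70.3% for 2.5 µM and 73.3% between these doses. For TAK901 the shares were 9.14% at 1 µM, 14.9% at 2 µM and 0.0715% between doses, and between the DMSO sets 67.3%. Shares with 1 library left out are not given here, so the ranges show only how far the counts of members moved. TAK901 counts were 12 at 1 µM and 8 at 2 µM both in the 6 libraries of the set and in the groups compared alone, and the cause was not tested. Of all genes tested, 21 and 23.3% were called in the set and 25.7 and 22.5% in the groups compared alone.

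Replicate numbers did not pair the libraries. With the replicate block in the 6 libraries of DMSO 1 and 2 and ENMD-2076 the counts were 36, 22 and 37, and in the 4 TAK901 libraries 0 between doses. In those 6 libraries without the block the counts of members were also 36, 22 and 37, and 45.2, 74.5 and 77.7% of all genes tested were called. The shares of all genes with the block are not given here. DMSO 3 and 4 carry other numbers than the TAK901 libraries, so no block was possible there.

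Of 944 values of named genes under alternatives, 875 kept direction and call, 10 lost a call, 44 gained one and 15 changed sign, all of them uncalled in the fit reported. Bub1b at ENMD-2076 2.5 µM was -0.32 with total counts and, with 1 library of the comparison left out, between -0.01 and 0.13. At TAK901 2 µM, Cenpq was between -0.04 and 0.16 with 1 library left out. Bub3 was 0.01 with total counts and -0.11 to 0.00 with 1 library left out. Cenpf, at -0.00 in the reported fit, was 0.03 with size factors, DESeq2 or the compared groups alone, 0.06 with total counts, 0.02 in the set alone or without both ENMD-2076 2.5 µM libraries, -0.12 to 0.12 with 1 library left out, and 0.00 with mitochondrial genes left out of the scaling. The TAK901 2 µM libraries held 6004077 and 3746588 reads.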
